A study of Mus musculus with 8 samples.

Results

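Open chromatin was described at 10 genes of the Kruppel-like factor family, 3 of which (Klf2, Klf4 and Klf5) are known for their part in pluripotency and 7 of which (Klf1, Klf3, Klf6, Klf7, Klf9, Klf10 and Klf13) are known mainly from differentiated tissues. The genes were taken by name from the 21774 protein-coding genes of the RefSeq annotation of GRCm38, and each was found. A peak counted as at an end when it overlapped the window of 1 kb on either side of either gene bound, and as inside when it overlapped the gene away from those windows. It counted as distal when its centre lay outside the gene, within 50 kb of it and over 1 kb from every end of a protein-coding gene. Together the 10 genes had 120 peaks in these classes, of 76996 in the whole list.

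The peaks came from ATAC-seq of 8 samples. This assay maps accessible DNA by letting a transposase, Tn5, cut and tag it. The cells were mouse embryonic stem cells, labelled RHKI, which derive from E14Tg2a, and all 8 samples carry the HA-Rnaseh1 knock-in. The 4 control samples went without doxycycline and the 4 Dox samples received doxycycline at 500 ng/ml for 48 hours. All were grown in 2i/LIF medium (NDiff 227 with LIF, 2% FBS, CHIR-99021 and PD0325901), and the labels do not say whether replicates were separate cultures. The list holds 1 set of peaks for the whole series, with positions only, so Dox was not compared with control, no value has a replicate error, and depth is unknown. The main counts below stand beside the same count over all protein-coding genes, and no test was made over so few genes.

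Kruppel-like factors bind GC-rich and CACCC sequences through a conserved set of zinc fingers at the C terminus of the protein. In mouse embryonic stem cells Klf2, Klf4 and Klf5 act in part redundantly to sustain self-renewal and bind many of the sites used by Nanog. Klf4, one of the reprogramming factors, is a target of LIF and STAT3 signalling, and Klf2 protein is stabilised when MEK is inhibited, as PD0325901 does. Of the other members, Klf1 drives red cell development, Klf3 is a repressor that recruits CtBP, Klf6 is a widely expressed regulator of growth, Klf7 acts in neurons, Klf9 is induced by glucocorticoid and thyroid hormone, Klf10 is induced by TGF-beta and Klf13 acts in T cells and the heart.

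The start regions of 5 members show some of what lay under the promoter peaks. They hold the whole peak of 149 bp at Klf2 and 1 whole peak of 110 bp at Klf6. They hold 136 bases of a 409 bp peak at Klf4 and 200 of a 374 bp peak at Klf9. Other start peaks of Klf4 and Klf6 lie outside these regions. They are given 5′ to 3′ on the gene's strand, from 250 bases before the transcript start to the base before it, or to 20 bases after it for Klf2, with the bases under a peak in capitals (RefSeq, GRCm38.p6). Klf2 and Klf4 stand for the pluripotency members, Klf6 and Klf9 for other members with a promoter peak, and Klf1 is the member without a peak at an end.
Klf2: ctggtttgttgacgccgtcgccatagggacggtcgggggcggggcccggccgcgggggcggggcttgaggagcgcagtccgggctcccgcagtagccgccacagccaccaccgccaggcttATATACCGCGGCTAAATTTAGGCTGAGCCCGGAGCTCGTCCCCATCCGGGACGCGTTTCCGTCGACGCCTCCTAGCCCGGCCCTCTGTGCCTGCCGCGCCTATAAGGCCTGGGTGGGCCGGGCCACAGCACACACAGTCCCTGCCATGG
Klf4: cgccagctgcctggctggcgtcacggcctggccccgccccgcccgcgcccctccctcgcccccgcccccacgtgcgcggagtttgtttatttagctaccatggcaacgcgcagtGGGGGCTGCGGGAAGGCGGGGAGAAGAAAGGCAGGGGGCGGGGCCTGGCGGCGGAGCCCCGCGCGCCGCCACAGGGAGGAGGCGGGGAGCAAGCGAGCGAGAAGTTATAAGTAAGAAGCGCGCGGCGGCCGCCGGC
Klf6: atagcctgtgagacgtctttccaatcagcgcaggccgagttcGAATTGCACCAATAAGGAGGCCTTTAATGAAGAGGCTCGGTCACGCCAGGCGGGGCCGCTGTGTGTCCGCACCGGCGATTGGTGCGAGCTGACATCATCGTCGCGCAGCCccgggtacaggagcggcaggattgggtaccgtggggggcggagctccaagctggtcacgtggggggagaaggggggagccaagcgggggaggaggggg
Klf9: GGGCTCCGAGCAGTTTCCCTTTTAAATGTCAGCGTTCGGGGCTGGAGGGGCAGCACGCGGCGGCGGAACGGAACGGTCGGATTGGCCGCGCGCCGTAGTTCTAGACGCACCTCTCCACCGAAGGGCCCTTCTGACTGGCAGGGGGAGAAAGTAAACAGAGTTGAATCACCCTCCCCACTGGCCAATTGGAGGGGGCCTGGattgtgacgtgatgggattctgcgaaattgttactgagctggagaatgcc
Klf1: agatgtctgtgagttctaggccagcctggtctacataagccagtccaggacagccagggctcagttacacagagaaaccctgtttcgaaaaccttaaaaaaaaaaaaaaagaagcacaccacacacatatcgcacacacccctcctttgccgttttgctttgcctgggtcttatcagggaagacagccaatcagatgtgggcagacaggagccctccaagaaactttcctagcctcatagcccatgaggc
These stretches lie at chr8:72318812-72319081 on the plus strand (Klf2), chr4:55532476-55532725 on the minus strand (Klf4), chr13:5861239-5861488 on the plus strand (Klf6), chr19:23140976-23141225 on the plus strand (Klf9) and chr8:84901732-84901981 on the plus strand (Klf1). The promoter table held a start for 8 of the 10 members, not for Klf5 and Klf10. In windows of 300 bases (250 before to 50 after the start), Klf4 had 74.3% G and C with 40 CpG dinucleotides, and Klf2 had 69.3% with 32. Klf6 had 63% with 23, Klf9 63.3% with 28 and Klf1 51.3% with 3. The median over 21263 promoters of protein-coding genes was 56.3% with 13 CpG. It was 62% with 22 for the 10672 promoters under a peak and 49% with 4 for the 10591 others. Klf1 lay near the second set, and the 4 members with capitals lay above the first in G and C content. Klf7, whose window also had no base under a peak, lay between the sets, with 58.3% and 16. Its listed start, chr1:64121389, lies inside the gene, whose upper bound is chr1:64122345. A peak at chr1:64122194-64122390 lies across that bound, outside the window, so the window does not describe the DNA at the bound. Klf3 (76.7% and 29 CpG) and Klf13 (72% and 32) were also rich in CpG.

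Short motifs were searched in these 300-base windows on both strands, as letters only. Bases under a peak numbered 149 at Klf2, 186 at Klf4, 89 at Klf3, 110 at Klf6, 200 at Klf9 and 37 at Klf13. Klf1 and Klf7 had 0, so no match there could lie under a peak. The GC-box word CCCGCCC, which KLF and SP factors bind, occurred 4 times at Klf4, 4 times at Klf3 and 2 times each at Klf2 and Klf13, against 1 or more in 33.9% of all promoters. In Klf4, 1 of the 4 matches lay under the peak, and in Klf2, Klf3 and Klf13 none did. The CACCC-type word CCACCC occurred in 5 of 8 members (Klf1, Klf2, Klf3, Klf7 and Klf13), against 33.6% of promoters. The match in Klf2, 19 bases before the start, lay under its peak, and no match in Klf3 or Klf13 lay under a peak. CCAAT occurred 4 times at Klf6, 3 times at Klf9, 2 times at Klf13 and 1 time at Klf1, against 38.2% of promoters with at least 1 match. All 3 matches at Klf9 and 2 of the 4 at Klf6 lay under their peaks. CACGTG was present at Klf4 and Klf6 (7.84% of promoters) and the STAT word TTCNNNGAA at Klf9 alone of the 8 (7.69%). None of these CACGTG and STAT matches lay under a peak. None of the 8 windows held ATGCAAA (4.23% of promoters), AAGGTCA (4.08%), TATAAA (12.6%) or CCGGAAG (11.6%). CCCGCCC matches overlap each other in part at Klf4.

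Of the 10 members, 9 had a peak at an end, against 61.7% of all protein-coding genes. Klf2, Klf4 and Klf5 had 1, 3 and 1 such peaks. The other members had 2 each at Klf3, Klf7, Klf9, Klf10 and Klf13, 3 at Klf6 and 0 at Klf1. The median was 1 for Klf2, Klf4 and Klf5 and 2 for the other 7, the median of all genes was 1, and the ranges overlapped. With a window of 500 bp the medians of both sets were 1. Having 2 or more peaks at the ends, as 7 of the 10 did, was seen in 24% of all genes, and 3 or more, as at Klf4 and Klf6, in 4.78%.

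**Figure D1:**
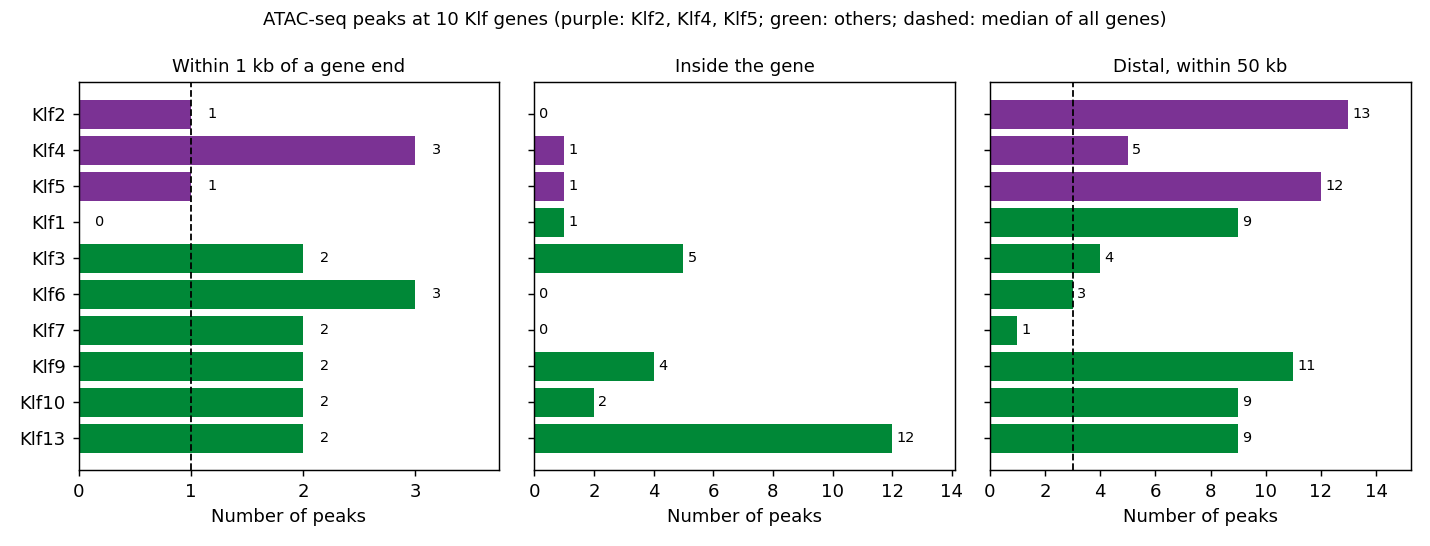
Number of peaks at the ends, inside and distal to each of the 10 Klf genes (bars, purple for Klf2, Klf4 and Klf5 and green for the other 7), with the median of all protein-coding genes as a dashed line (at 0 for peaks inside). Klf2 and Klf5 have the most distal peaks (13 and 12), Klf13 the most inside (12), and Klf1 has none at its ends.

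Where the start is known, these peaks lay at the start. The 8 members with a start in the promoter table had 15 peaks at their ends, 13 on the start side and 2 on the finish side, 1 each at Klf6 and Klf9. A start-side peak was found at 7 of the 8, and within 1 kb of a known start at 62.1% of 17492 protein-coding genes. At Klf2 the single peak, chr8:72318933-72319081, covered 129 bases before the start and 20 after it. At Klf4 the widest of 3 peaks, chr4:55532203-55532611, spanned the start with 409 bp, and both flanking peaks were 107 bp wide. The peak of Klf5, chr14:99298545-99298693, was 149 bp wide and lay across its lower bound. Klf10 had both of its peaks outside its upper bound, at 158 and 724 bp by centre. Klf1 had its only own peak inside the gene at chr8:84903129-84903300, 1232 bp from the start by centre and so just past the 1 kb limit. Klf13 had a peak just within that limit, 953 bp before its start. Klf9 had one 983 bp past its upper bound, on the finish side.

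Peaks inside the gene were found at 7 of 10 members, against 45.5% of all protein-coding genes. With 5 kb at each end left out it was 3 members (Klf3, Klf9 and Klf13), against 33.1%, and both medians were 0. Among the pluripotency members Klf2 had 0, Klf4 had 1 and Klf5 had 1. Klf13 had 12 in 52.6 kb, Klf3 had 5 in 29.4 kb, Klf9 had 4 in 26.9 kb, Klf10 had 2 in 9.25 kb, Klf1 had 1 in 3.31 kb, and Klf6 and Klf7 had 0. Klf7 is the longest member at 92.9 kb. Per 10 kb of gene the order changed, with 3.02 peaks at Klf1, 2.28 at Klf13, 2.16 at Klf10, 1.87 at Klf4, 1.70 at Klf3, 1.49 at Klf9 and 0.679 at Klf5, against 0.317 for all protein-coding genes summed. Taken gene by gene, the median of all genes was 0 and the upper quartile 0.527. The divisor was the whole gene, although peaks within 1 kb of an end could not count as inside. That leaves little of Klf1, whose value rests on 1 peak, and of Klf2. Klf2 (2.59 kb), Klf4 (5.34 kb) and Klf5 (14.7 kb) are shorter than Klf3, Klf7, Klf9 and Klf13. The difference of the medians (1 for Klf2, Klf4 and Klf5 and 2 for the other 7) was from -2 to -0.5 when each other member was left out in turn. Of the 12 peaks in Klf13, 2 also lay in the overlapping gene E030018B13Rik and 3 in the lncRNA gene Gm27252. In Klf3, 1 of the 5 also lay in the overlapping protein-coding gene Gm38457, as did both peaks at its start. The gene table has no exons, so exonic and intronic peaks were not told apart.

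The widest peak of any member lay inside Klf9, a hormone-responsive member. It was 735 bp wide, at chr19:23151701-23152435, 10842 bp from the start by centre, and ranked 67 by width among the 76996 peaks. The promoter peak of Klf9, chr19:23140802-23141175, was also wide with 374 bp. The median over all peaks was 130 bp, and the median of the 120 member peaks was 131 bp. Apart from a few wide peaks the members were therefore ordinary in width, with a median of 123 bp at ends, 131.5 bp inside and 135.5 bp distally.

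**Figure D2:**
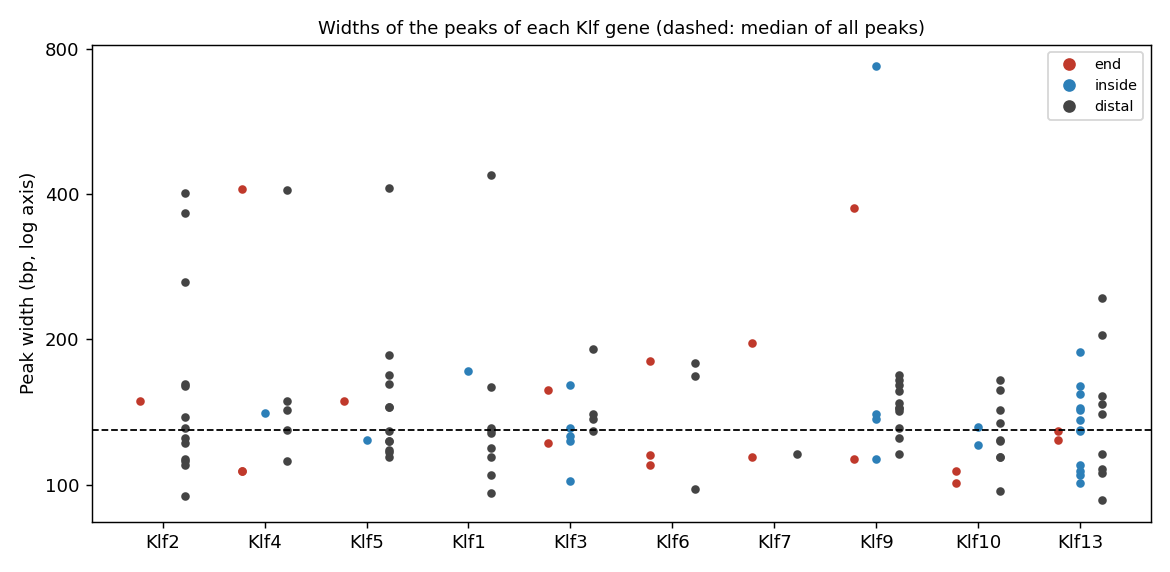
Width of every peak at the ends (red), inside (blue) and distal to (grey) each Klf gene on a log axis, with the median of all peaks, 130 bp, as a dashed line. Most points lie near that line. Well above it are the 735 bp peak inside Klf9, end peaks of 409 bp at Klf4 and 374 bp at Klf9, and distal peaks of 366 and 402 bp at Klf2, 408 bp at Klf4, 412 bp at Klf5 and 437 bp at Klf1.

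Within 50 kb, distal peaks were most numerous around Klf2 and Klf5. Klf2 had 13, a number reached by 2.65% of all protein-coding genes, and Klf5 had 12, reached by 4.09%. Klf4 had 5, which 38.8% of genes reach. The other members had 11 at Klf9 (6.12% of genes), 9 each at Klf1, Klf10 and Klf13 (12.6%), 4 at Klf3 (47.8%), 3 at Klf6 (57.8%) and 1 at Klf7 (81.5%). The medians were 12 for Klf2, Klf4 and Klf5 and 9 for the other 7, with 3 over all genes (quartiles 1 and 6). The ranges, 5 to 13 and 1 to 11, overlapped, with Klf4 below 4 of the other members. Both medians were 17 within 100 kb (7 over all genes), and they were 4 and 3 within 20 kb (1 over all genes). Klf9 came first at both of these distances. Within 100 kb it had 22, Klf10 21 and Klf1 20, against 17 at Klf2 and 19 at Klf5. Within 20 kb Klf9 had 8 against 5 at Klf2 and 4 at Klf5. Klf9 was also first among peaks wider than the median, with 9 against 7 and 6. Leaving out Klf1, Klf9, Klf10 or Klf13 moved the difference from 3 to 5.5.

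**Figure D3:**
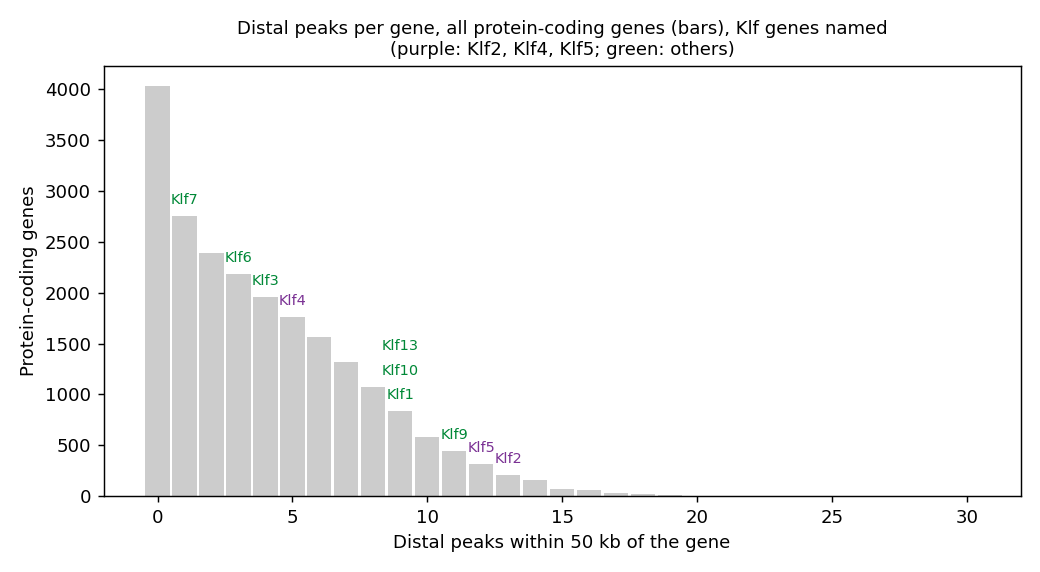
Distribution of distal peaks within 50 kb over all protein-coding genes (bars), with each Klf gene named above the bar of its own count (purple for Klf2, Klf4 and Klf5, green for the other 7). Klf2, Klf5 and Klf9 lie in the right tail, with 13, 12 and 11 peaks, whereas Klf4 (5), Klf3 (4), Klf6 (3) and Klf7 (1) lie in its main part.

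The members differed in whose neighbourhood these peaks occupied. All 9 distal peaks of Klf1 lay on its finish side inside other protein-coding genes, 7 in Mast1 and 2 in Rtbdn, and 6 further peaks within 50 kb were at ends of other protein-coding genes. Klf2 had 4 of its 13 inside Eps15l1, whose nearer bound is 19.3 kb away. No distal peak of the other 8 members lay in a protein-coding gene. Counted outside protein-coding genes alone, Klf5 kept 12, Klf9 11, Klf10 and Klf13 9 each, Klf2 9 and Klf4 5, and Klf1 fell to 0, which gave medians of 9 and 4 (1 over all genes). Counted only where the member was the nearest protein-coding gene, Klf5 and Klf9 had 10 each, Klf13 9, Klf4 and Klf10 5 each, and Klf2 and Klf6 3 each (a median of 0 over all genes). A distal peak near a gene is not shown to act on it.

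Around Klf2, whose protein MEK inhibition stabilises, distal peaks lay on both sides, 7 on the start side and 6 on the finish side. The nearest was 2.70 kb before the start. A chain of 3 peaks within 1379 bp, chr8:72271223-72272601, lay 46.5 to 47.8 kb before the start, and a peak of 402 bp at chr8:72279049-72279450 lay 39.8 kb before it. On the finish side a peak of 366 bp at chr8:72334312-72334677 lay 12.8 kb past the gene, beside one of 122 bp. Here and in the chains named below, neighbouring peaks have centres at most 2 kb apart, a limit chosen after the positions were seen.

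Around Klf4, the LIF-responsive reprogramming factor, the few distal peaks were mainly remote. The finish side held 4, at 12.3, 46.5, 49.0 and 49.5 kb, and the start side 1, at 35.3 kb inside the lncRNA gene Gm12506. The farthest was also the widest, 408 bp at chr4:55477397-55477804, and its centre lay just inside the 50 kb limit. A further 4 distal peaks lay between 50 and 100 kb.

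Around Klf5 the peaks were concentrated beyond the upper bound, with 9 there and 3 below the lower bound. A chain of 3 peaks within 1652 bp, chr14:99324623-99326274, lay 11.4 to 12.8 kb beyond that bound and began with a peak of 412 bp at chr14:99324623-99325034. A pair followed 26.5 and 26.8 kb beyond it. None of the 12 lay inside an annotated protein-coding gene, and the nearest such gene, Pibf1, is 43.8 kb away.

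**Figure D4:**
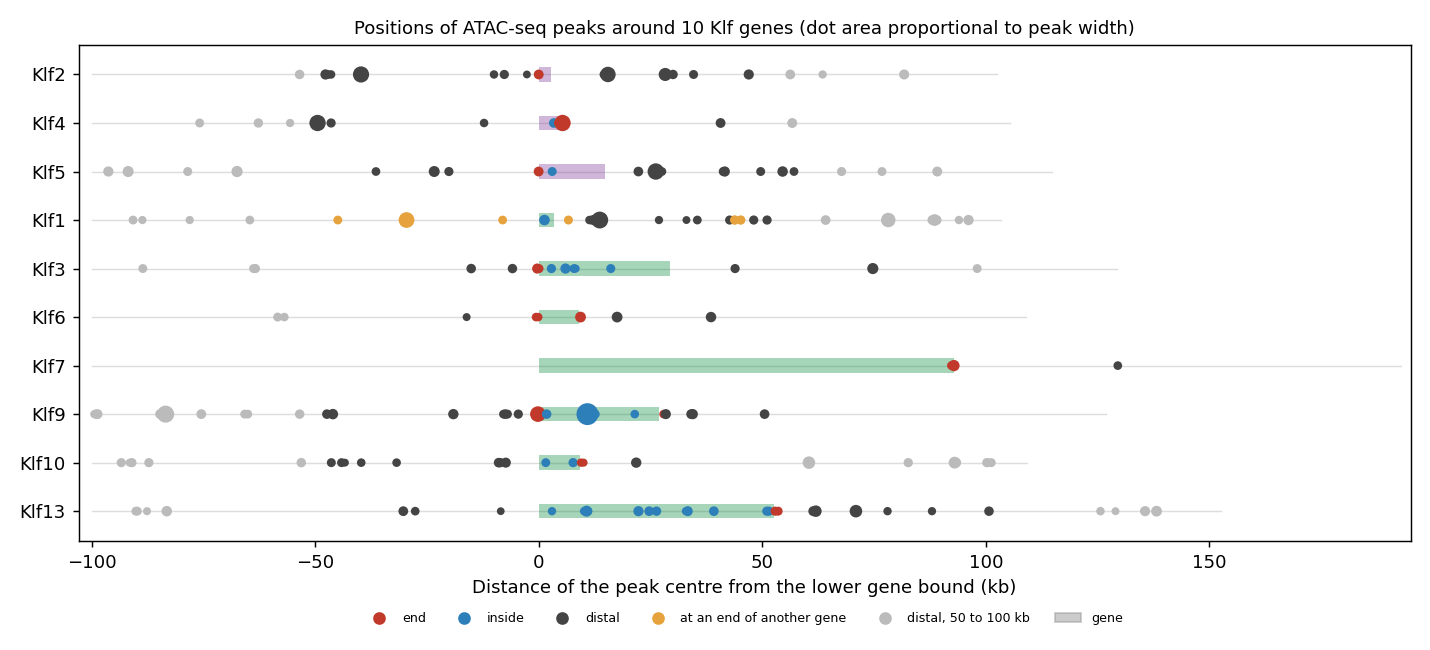
Positions of peaks along each locus, as the distance of the peak centre from the lower gene bound in kb, with the gene as a shaded bar and dot area proportional to peak width. Red dots are at ends, blue inside, dark grey distal, orange at an end of another gene and light grey distal at 50 to 100 kb. Klf1 is the only member with orange dots (6), and Klf7 has 1 dark grey dot.

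Klf2, Klf4 and Klf5 each had a distal peak of at least 400 bp within 50 kb (402, 408 and 412 bp), a width chosen after the values were seen. Of the other 7 members only Klf1 had one, of 437 bp, inside Mast1. The count depends on the reach of 50 kb. The peak lay 39.8 kb from Klf2, 49.5 kb from Klf4, 11.4 kb from Klf5 and 10.3 kb from Klf1, and Klf9 had one of 447 bp at 83.5 kb. Such a peak was found within 50 kb at 8.83% of all protein-coding genes, a share not matched for the number of distal peaks. Of all peaks, 3.23% (2490) were that wide. The widest distal peaks of the other 6 members ran from 116 bp at Klf7 to 244 bp at Klf13. With a width of 300 bp the count was also 4 members (13.1% of genes), and with 200 bp it was 5 (24%). No gene of the naive network or of the wider family, both described below, had a distal peak of 400 bp. With 300 bp Lifr of the naive network had one, of 325 bp. With 200 bp Il6st and Tfcp2l1 also had one, as did Klf15, Sp2, Sp5 and Sp6 of the wider family.

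The distance of the distal peaks varied from gene to gene. Klf2 had 5 of 13 within 20 kb, Klf4 1 of 5 and Klf5 4 of 12, together 10 of 30. The other members had 24 of 46, or 16 of 35 without Klf9, and Klf1 with 3 of 9 had the same share as Klf5. Over all pairs of a protein-coding gene and a distal peak within 50 kb, 40.2% lay within 20 kb. Peaks of 1 gene share their locus, so these shares describe 10 loci and not 76 separate observations. Klf9 had 8 of its 11 within 20 kb, among them a chain of 3 within 1010 bp, chr19:23133217-23134226, 7.06 to 7.95 kb before the start. Klf10 had a like chain of 3 within 1753 bp, chr15:38282369-38284121, 7.42 to 9.02 kb below its lower bound, and Klf1 one of 3 within 2565 bp inside Mast1. Chains of 3 or more distal peaks were found at 5 of the 10 members (Klf1, Klf2, Klf5, Klf9 and Klf10), against 6.93% of all genes. They were also found at 5 of the 12 naive network genes and at 0 of the 16 wider family genes described below. The share of all genes was not matched for the number of distal peaks. With gaps of up to 1000 bp it was 3 members (2.81% of genes) and with up to 5 kb 6 (19%).

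Klf7, a neuronal member, and Klf6 had the fewest distal peaks of the members, 1 and 3, beside a median of 3 over all protein-coding genes. The only distal peak of Klf7 was 116 bp wide and lay 36.6 kb past its upper bound, in the lncRNA gene Gm35880. Both of its end peaks, of 114 and 197 bp, lay at the upper bound in that same lncRNA gene. Klf6 had distal peaks at 8.58, 16.2 and 29.6 kb, the last 168 bp wide, beside 2 peaks at its start and 1 past its finish. Klf3, the CtBP-dependent repressor, had 4 distal peaks, the nearest 5.93 kb before the start, and 5 peaks inside the gene.

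The other genes that encode this zinc-finger domain, 7 further Klf genes and the 9 Sp genes, gave a median between those of the members and of all genes. Of these 16 genes, 12 had a peak at an end, against 61.7% of all protein-coding genes. Their median number of distal peaks was 5.5, against 9 for the 10 members and 3 over all genes. Klf8, Klf15, Sp6 and Sp7 had none at an end, although Klf8 and Klf15 had 3 and 1 peaks within 1 kb of a listed transcript start, and Klf16 and Sp1 had the most distal peaks, 12 each. Klf12 had 0 distal peaks and 10 inside. Sp1 and Sp7 are neighbours, as are Sp2 and Sp6, and their distal peaks are counted for both.

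Of 12 genes that act with or upstream of Klf2, Klf4 and Klf5 in naive cells, 10 had a peak at an end (61.7% of all genes). Their median number of distal peaks was 8.5 (1 to 18), against 3 over all genes. The list as written also held the symbol Tcf3, which in this annotation is the E2A gene and not the TCF3 of the naive network, and it was left out. Nanog had 18, Prdm14 16 and Tbx3 13, so Klf2 equalled the third and Klf5 lay 1 below it. Esrrb, the orphan nuclear receptor gene, had 1 distal peak but 21 inside it, and Lifr had 4 and 10. These 2 are the genes without a peak at an outer bound, but they had 1 and 3 peaks within 1 kb of a transcript start that lies elsewhere in the promoter table. Klf4, with 5 distal peaks and 1 inside, had more distal peaks than Esrrb and Lifr and fewer than the other 10.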

How the data were processed

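ATAC-seq peaks of 8 samples (4 control, 4 Dox, grouped by title) were deposited by the authors as 1 list of positions in 3 columns (chromosome, start and end, with the start counted from 0), with no score, height or value per sample (0 columns of other samples were left out). The build was GRCm38 and the tools were deepTools 3.5.1, HOMER 4.11, Bowtie2 2.5.0, Trimmomatic 0.39, SAMtools 1.16.1 and Picard 2.10.9, per the submitters' processing notes. The sources used here do not give their roles, the peak caller, its threshold or any pooling, so a missing peak may reflect threshold, mapping or depth.

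Starts were converted to count from 1. Gene bounds came from RefSeq GRCm38.p6, leaving out scaffolds and patches, and starts and promoter sequences from its promoter table, matched by gene ID. An overlap of 1 bp counted. All 10 members were named, and from the wider family those without a peak at an end and the 2 with the most distal peaks, and from the naive network the 3 with the most distal peaks. Klf12, Esrrb, Lifr, Tcf3 and the genes of both lists with a distal peak of 200 bp or more were named with their values already seen. The members and lists were chosen with earlier results of these data known. Counting was tested on simulated peaks, where 200 genes on chromosomes 4 and 8 were recounted by brute force and 0 differed. Alternatives covered windows, reach, width, peak centre, neighbouring genes and single members left out. Python 3.11.15, NumPy 2.4.6, pandas 2.3.3 and matplotlib 3.10.9 were used.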

Additional observations from a re-analysis of the deposited data

How the results depend on the processing

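Between 7 and 10 members had a peak at an end under every setting run, with 7 of 8 where the transcript start alone counted. The difference of medians at ends (Klf2, Klf4 and Klf5 minus the others) went from -1 to 0 with a window of 500 bp, with peaks wider than the median and at the start alone. With 5 kb at each end left out, 3 members had a peak inside and the difference inside was 0. That difference was -2 without Klf1, Klf6 or Klf7 and -0.5 without Klf3, Klf9 or Klf13. The median number of distal peaks over the 10 members was 9, and it was 3.5 within 20 kb, 17 within 100 kb, 3.5 with peaks wider than the median and 4 where the member had to be the nearest protein-coding gene. The difference in distal peaks was 3, and it became 1 within 20 kb, 0 within 100 kb, 9 with peaks within 5 kb of any protein-coding gene's end left out, 5 outside protein-coding genes, and 5.5 without Klf1, Klf9, Klf10 or Klf13. No alternative turned a difference to the opposite sign. Over all alternatives of single counts, 95 of 152 stayed within 1.5 times the reported value. No paired analysis was possible because the list holds no value per sample. Depth is unknown, so whether a missing peak is below detection cannot be told.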

Other observations

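Beyond 50 kb the surroundings of the members differed again. Between 50 and 100 kb there were 12 distal peaks at Klf10, 11 each at Klf1 and Klf9, 8 at Klf13, 7 at Klf5, 4 each at Klf2, Klf3 and Klf4, 2 at Klf6 and 0 at Klf7, with a median of 3 over all protein-coding genes. At Klf9 all 11 lay on the start side, 9 of them in the lncRNA gene C330002G04Rik, and 1 of these was 447 bp wide (chr19:23057464-23057910). At Klf4, 3 lay on the finish side at 55.7, 62.8 and 75.9 kb, past the 408 bp peak at 49.5 kb, and 1 on the start side at 51.3 kb in the lncRNA genes Gm12506 and Gm12511. At Klf5, 4 of the 7 lay inside Pibf1. Klf1 had 1 in Rnaseh2a, which encodes the catalytic subunit of RNase H2.

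The most isolated members had from 1 to 5 distal peaks within 50 kb, beside a median of 3 over all protein-coding genes. Klf6 lay 677.7 kb from the next protein-coding gene, Pitrm1, and had 3. Klf7 lay 260.2 kb from 4933402D24Rik and had 1, and Klf4 lay 134.9 kb from Rad23b and had 5. Klf10, 64.7 kb from Odf1, had 9, Klf5, 43.8 kb from Pibf1, had 12, Klf9, 38.3 kb from Smc5, had 11, and Klf2, 19.3 kb from Eps15l1, had 13. The 3 members closest to another protein-coding gene had 9 at Klf1 (3.5 kb from Dnase2a), and 4 at Klf3 and 9 at Klf13, which each overlap one. The counts thus followed no strict order of isolation, and some peaks were shared with neighbours. Where the member had to be the nearest protein-coding gene, Klf6 had 3, Klf7 1, Klf4 and Klf10 5 each, and Klf5 and Klf9 10 each. Klf2 then had 3, Klf1 0, Klf3 2 and Klf13 9. These values were noticed in the data and not tested.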
